A study of Mus musculus with 12 samples.

Results

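The 8 enzymes of the pentose phosphate pathway were followed in mouse gastruloids by adding up, for each gene symbol, the counts of its RefSeq transcripts, so that 8 of the 38911 genes in the count tables are described here. The oxidative branch comprised *G6pdx*, *H6pd*, *Pgls* and *Pgd*, and the non-oxidative branch *Rpia*, *Rpe*, *Tkt* and *Taldo1*. All 8 were detected in all 12 libraries and all 8 passed the filter on low counts.

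Gastruloids are aggregates of embryonic stem (ES) cells that break symmetry and elongate in culture. They were grown from 200 cells of E14TG2a, a mouse ES cell line kept in 2iLIF. Treatment began on day 3, and polyA RNA was taken for sequencing on day 4. The 4 treatments were 1x glucose (21.25 mM, the control), 0x glucose (no glucose), 3x glucose (63.75 mM), and 5 mM 2-deoxy-D-glucose (2-DG) in 1x glucose; 2-DG is a glucose analogue that competes with glucose at hexokinase. Pyruvate was in the medium of all 4 treatments. Each treatment had 3 libraries, made from gastruloids pooled from 1 plate at ES cell passage 13, 15 or 16, so replicates are 3 passages of 1 line and the p-values measure the spread between those passages only. Passage, date and plate cannot be told apart, and in such bulk samples fewer cells of a type and less RNA per cell cannot be told apart either.

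The pathway takes glucose-6-phosphate, the product of hexokinase, away from glycolysis. Its oxidative branch oxidises and decarboxylates the sugar and yields NADPH, the reductant of lipid synthesis and of the glutathione and thioredoxin systems. Its non-oxidative branch interconverts pentose phosphates with fructose-6-phosphate and glyceraldehyde-3-phosphate, and can run in either direction, so that ribose-5-phosphate for nucleotides can be made from glycolytic intermediates as well as from the oxidative branch.

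Library totals were 31902471 to 34266196 counts at 0x glucose, 38439471 to 45956080 at 1x, 33336139 to 40744645 at 3x and 33666332 to 37496932 with 2-DG, so the 1x libraries were deeper than all 0x libraries. Levels are given as CPM, counts scaled to the size of each library, with TMM factors that correct for differences in composition. Cell type markers differed with 2-DG. The summed level of 6 streak and mesoderm markers (*T*, *Mixl1*, *Wnt3a*, *Tbx6*, *Msgn1*, *Meox1*) was 694 to 723 CPM at 1x glucose, 671 to 733 at 0x and 714 to 743 at 3x, but 283 to 451 with 2-DG, and *T*, *Mixl1* and *Wnt3a* passed the test as lower against 1x (5 of 6 with passage as a block in the fit). The 4 neural markers (*Sox1*, *Sox2*, *Sox3*, *Pax6*) summed to 54.8 to 158 CPM at 1x and 99.3 to 249.7 with 2-DG, with *Sox1* and *Pax6* called higher (4 of 4 with the block). The 4 pluripotency markers (*Pou5f1*, *Nanog*, *Zfp42*, *Esrrb*) summed to 29.4 to 46.5 CPM at 1x and 49.3 to 63.1 with 2-DG, with 0 of 4 called (3 at an unadjusted p under 0.05) and 3 called higher with the block. The summed level of the 4 endoderm markers (*Sox17*, *Foxa2*, *Foxa1*, *Cer1*) was 3.21 to 166 CPM at 1x and 8.73 to 63.6 with 2-DG, with 0 of 4 called (1 higher and 2 lower with the block). That of the 4 blood and endothelium markers (*Kdr*, *Pecam1*, *Cdh5*, *Gata1*) was 1.32 to 7.20 and 0.879 to 1.34 CPM, with *Gata1* at 0 in all 0x, 3x and 2-DG libraries and 0 of the 3 tested called (2 lower with the block). Of all genes tested, 9.12% were called higher and 8.51% lower with 2-DG against 1x (21.1% and 20.2% with the block). Whether the cell type markers have a part in the 2-DG results below was not tested.

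The pathway's levels spanned a wide range. Per kilobase of the main RefSeq transcript at 1x glucose, *Tkt* was highest at 163 ± 9.34 CPM per kb (SD, n = 3), followed by *Pgls* at 125 ± 2.53, *Pgd* at 103 ± 3.10 and *Taldo1* at 88.0 ± 5.78. *G6pdx* followed at 44.9 ± 2.25 CPM per kb, *Rpe* at 21.3 ± 1.14, *Rpia* at 10.5 ± 0.720 and *H6pd* at 3.94 ± 0.471. The ranges over all 12 libraries of neighbours in this order did not overlap, taking 2218 bases for *Pgd* in every library, and for example *Rpia* spanned 7.55 to 11.5 CPM per kb and *Rpe* 18.4 to 23.1. The cytosolic isomerase and epimerase, which both act on ribulose-5-phosphate, thus had lower levels per length than the enzymes just before and after them in the pathway. *G6pd2*, an intronless copy of *G6pdx*, had 5 to 17 counts in each library, against 3733 to 5687 for *G6pdx*; how reads that fit both were divided is not given in the sources used here. The transketolase-like genes *Tktl1* and *Tktl2* had at most 5 counts in any library.

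Across treatments, the steadiest members were *Pgd* and *G6pdx*, with coefficients of variation over the 12 libraries of 3.31% and 3.66%. *Tkt* (5.09%), *Pgls* (5.80%) and *Rpe* (6.88%) came next, and *Taldo1* (8.68%), *H6pd* (9.84%) and *Rpia* (12.6%) varied most. The median over the 8453 tested genes with a mean at least that of the lowest member was 8.15%. The plot of levels by treatment and passage shows all 12 values for each gene.

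**Figure D1:**
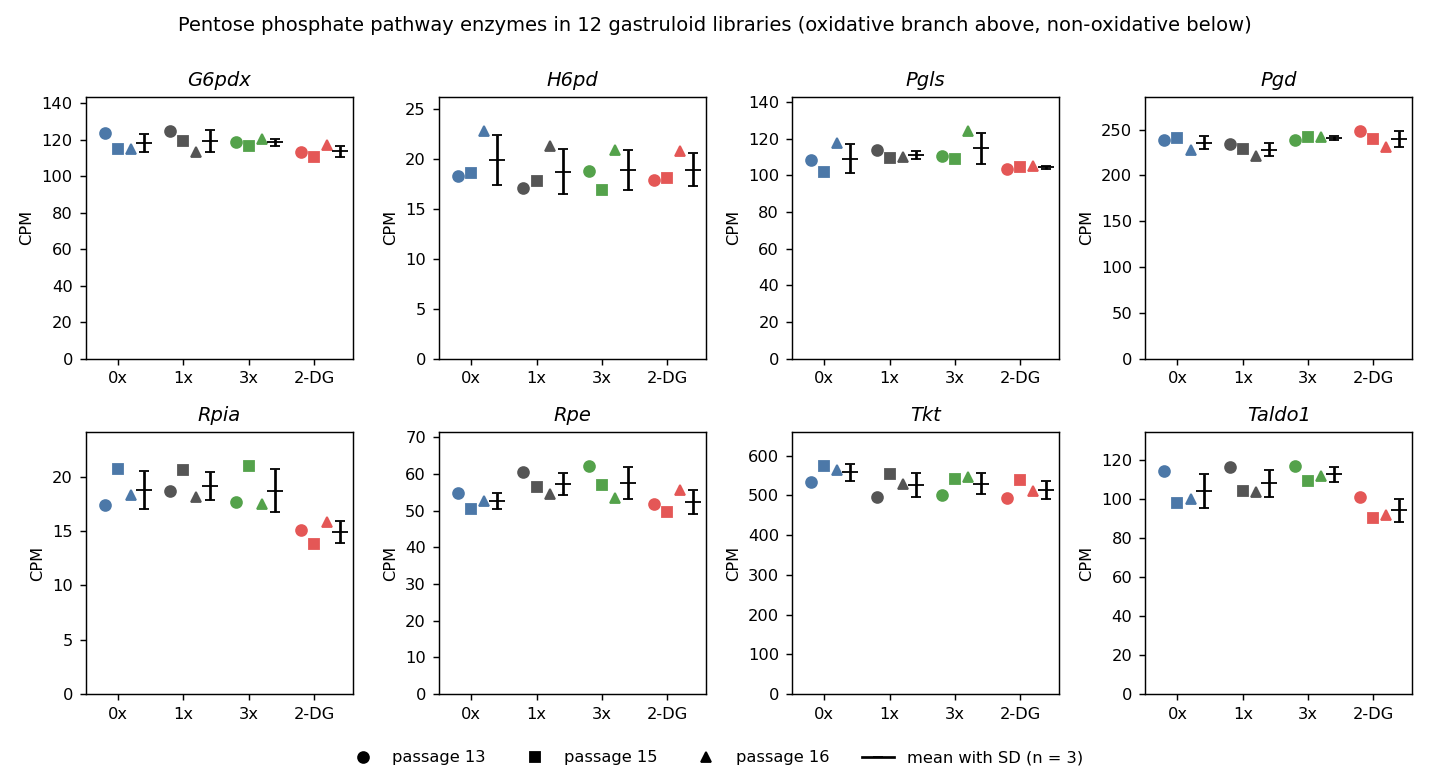
Levels of the 8 pentose phosphate pathway genes in CPM (y axis from 0) by treatment (x axis: 0x, 1x and 3x glucose, 2-DG), with 1 point a library, shaped by ES cell passage, and bars for the mean and SD (n = 3). The 2-DG points of *Rpia* (13.8 to 15.8 CPM) lie below its other 9 libraries (17.4 to 21.0 CPM), and *H6pd* is highest at passage 16 in every treatment.

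The first question was whether 2-DG, which competes at the step that feeds the pathway, changed its transcripts. *Rpia* was the only member that passed the test against 1x glucose. It fell by 22.3% with 2-DG (95% interval −33.5% to −9.04%; log2 fold change −0.36, SE 0.10; edgeR quasi-likelihood test, adjusted p = 0.0342). In this comparison 17.6% of the 16966 genes tested were called in either direction, and 1 call among 8 members was no larger a share than that. As lower, 1 of the 8 members was called against 8.51% of all genes, a difference that rests on 1 gene. The median log2 fold change was −0.08 over the 8 members and 0.0023 over all genes tested, and the median size of the change, whatever its sign, was 0.080 and 0.20, respectively. With passage as a block in the fit, *Rpia* had an adjusted p of 0.00822 and *Taldo1* was called as well, in a fit that called 41.3% of all genes (20.2% as lower).

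*Rpia* (chromosome 6, 70765720 to 70792175, GRCm38.p6) encodes ribose-5-phosphate isomerase, which makes ribose-5-phosphate from ribulose-5-phosphate. With 2-DG it stood at 15.1, 13.8 and 15.8 CPM at passages 13, 15 and 16. At 1x glucose the values were 18.7, 20.7 and 18.2 CPM, at 0x 17.4, 20.8 and 18.3, and at 3x 17.7, 21.0 and 17.5. All 3 libraries with 2-DG were below all 9 others, a pattern that 11.3% of the tested genes shared. At passages 13, 15 and 16 the 2-DG libraries held 515, 507 and 595 counts of *Rpia* and the 1x libraries 851, 786 and 842, all of them on a single RefSeq transcript. The call was lost without the 1x library of passage 13 (adjusted p = 0.0586) or 15 (0.110) and without the 2-DG library of passage 13 (0.0724) or 15 (0.111, adjusted p from the same edgeR test), while the log2 fold change stayed between −0.41 and −0.31. It was also lost when only the 2 groups entered the fit (adjusted p = 0.0591).

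*Taldo1* (chromosome 7, 141392160 to 141402976) encodes transaldolase, which passes a dihydroxyacetone unit from sedoheptulose-7-phosphate to glyceraldehyde-3-phosphate. Its values with 2-DG were 101, 90.3 and 91.7 CPM at passages 13, 15 and 16, against 116, 104 and 104 at 1x glucose. The ranges of the 2 groups did not overlap and each passage showed a lower value with 2-DG, but the passages themselves differed by almost as much as the treatments. Without a passage term the change of −12.8% (95% interval −21.9% to −2.60%; log2 fold change −0.20, SE 0.07) had an adjusted p of 0.0863 and was not called. With passage as a block the same log2 fold change of −0.20 had an SE of 0.03 and an adjusted p of 0.000609 (edgeR), and was called.

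The start regions of these 2 genes are shown because they are the members called with 2-DG in one fit or the other. Each runs from 250 bases before the RefSeq start to the last base before any annotated GENCODE start, 5′ to 3′ on the gene's strand (RefSeq, GRCm38.p6), which gives 193 bases of the minus strand for *Rpia* (chr6:70792233-70792425) and 250 of the plus strand for *Taldo1* (chr7:141391910-141392159). Capitals mark matches, on either strand, to 5 motifs searched in the promoters of all genes. They were the GC box (GGGCGG), the CCAAT box (spelled as its name), the E box (CACGTG), the core of the antioxidant response element (TGACNNNGC) and the letters ACTACANNT, the last chosen after the *Rpia* sequence was seen. No marked match overlaps another.
Rpia: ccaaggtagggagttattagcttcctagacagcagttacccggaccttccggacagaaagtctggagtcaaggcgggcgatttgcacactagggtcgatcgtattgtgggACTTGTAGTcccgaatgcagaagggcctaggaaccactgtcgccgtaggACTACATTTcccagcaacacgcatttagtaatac
Taldo1: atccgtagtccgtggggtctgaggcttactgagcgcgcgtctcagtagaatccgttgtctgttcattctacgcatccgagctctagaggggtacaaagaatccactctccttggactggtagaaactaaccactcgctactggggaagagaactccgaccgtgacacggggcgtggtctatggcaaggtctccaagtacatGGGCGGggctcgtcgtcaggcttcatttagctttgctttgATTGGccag
The *Rpia* region holds ACTACANNT at 2 places, once on each strand. Since these letters were chosen after this sequence was seen, the match was given beforehand and is no test. None of the other 7 members has the motif in its 300-base promoter window (250 bases before and 50 after the start). In that window 4.16% of 32851 mouse promoters hold it. The *Taldo1* region holds a GC box and, next to its start, a CCAAT box on the opposite strand. Over the full windows, the GC box was in a promoter of 7 of the 8 members (35.7% of all promoters), the CCAAT box in 4 (37.4%), the antioxidant response core in *G6pdx* and *Pgd* (12.4%), and the E box in 0 (7.15%). These are matches of letters and no measurement of binding.

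The remaining non-oxidative enzymes were not called. *Rpe* (chromosome 1, 66700797 to 66719805), the epimerase that makes xylulose-5-phosphate, stood at 51.8, 49.6 and 55.8 CPM with 2-DG and at 60.6, 56.4 and 54.6 at 1x glucose, for passages 13, 15 and 16, with overlapping ranges (log2 fold change −0.13, SE 0.07, adjusted p = 0.243). *Tkt* (chromosome 14, 30549131 to 30574724), the thiamine-dependent transketolase, stood at 493, 538 and 511 CPM with 2-DG and at 495, 555 and 528 at 1x, and its ranges overlapped as well (log2 fold change −0.03, SE 0.06, adjusted p = 0.754). The estimates of all 4 non-oxidative genes were thus below 0, with a median of −0.16 on the log2 scale, and 1 of 4 passed the test.

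None of the 4 oxidative genes was called with 2-DG, and their median log2 fold change was −0.03. *G6pdx* (chromosome X, 74409483 to 74428880) encodes glucose-6-phosphate dehydrogenase, the entry step and main control point of the pathway. It stood at 113, 110.7 and 117 CPM with 2-DG and at 125, 119 and 113 at 1x glucose, so the groups overlapped, and the 95% interval of the change ran from −11.4% to 2.71% (adjusted p = 0.379). *Pgls* (chromosome 8, 71592184 to 71596267), the lactonase of the next step, stood at 104, 104 and 105 CPM with 2-DG and at 114, 109.6 and 110.3 at 1x. Its ranges did not overlap, which was so for 3 members in this comparison (*Pgls*, *Rpia* and *Taldo1*) and for 35.4% of all genes, but the difference was not called (log2 fold change −0.09, SE 0.06, adjusted p = 0.365). *Pgd* (chromosome 4, 149149991 to 149166705), which encodes 6-phosphogluconate dehydrogenase, the second source of NADPH in the branch, was at 249, 239 and 231 CPM with 2-DG and at 235, 229 and 221 at 1x, higher in 3 of 3 passages by log2 0.07 (SE 0.04, adjusted p = 0.295). *H6pd* (chromosome 4, 149979474 to 150009023), which encodes the enzyme that runs the first oxidative steps in the lumen of the endoplasmic reticulum (ER), was at 17.9, 18.0 and 20.8 CPM against 17.0, 17.8 and 21.2, and its interval was the widest, from −16.3% to 22.3% (adjusted p = 0.949).

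**Figure D2:**
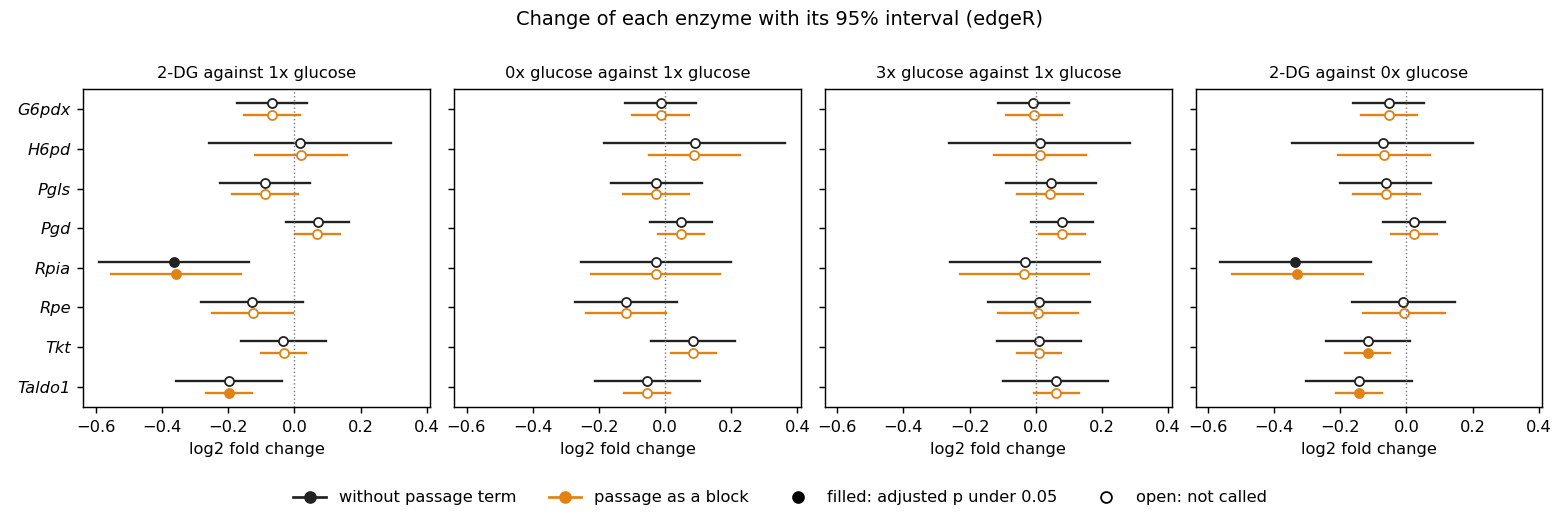
Log2 fold change (x axis) of each enzyme (y axis) in 4 comparisons, with 95% intervals from edgeR without a passage term (dark) and with passage as a block (orange); filled points had an adjusted p under 0.05. *Rpia* is filled in both comparisons with 2-DG, *Taldo1* and *Tkt* are filled there only with the block, and no point is filled in the comparisons of glucose doses.

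The second question was whether the amount of glucose itself changed the enzymes. With no glucose, 0 of 8 members were called against 1x glucose (0.0118% of all genes), 0 had an unadjusted p under 0.05, and DESeq2 called 0. Their log2 fold changes ran from −0.12 (*Rpe*, lower in 3 of 3 passages) to 0.09 (*H6pd*, higher in 3 of 3), and the lowest and highest bounds of their 95% intervals were −17.3% and 28.6%. *Tkt* was at 535, 574 and 565 CPM without glucose, higher than its 1x counterpart in 3 of 3 passages by log2 0.08 (SE 0.06). Its ranges overlapped with those at 1x, and it was not called with or without the block, which called 0.0177% of all genes and where the lowest adjusted p of any member was 0.451. No member's range at 0x was free of overlap with that at 1x (5.63% of all genes). *G6pdx* stood at 124, 115 and 115 CPM, and its log2 fold change was −0.01 (SE 0.05).

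At 3x glucose, 0 of 8 members were called against 1x (0% of all genes), again with 0 at an unadjusted p under 0.05 and 0 called by DESeq2. The changes lay between −0.03 (*Rpia*) and 0.08 (*Pgd*) on the log2 scale, and the 95% intervals between −16.6% and 21.9%. *Pgd* was at 239, 242 and 242 CPM at 3x glucose and its range did not overlap that at 1x, which held for 4.47% of all genes; its interval ran from −1.09% to 12.6%. Between 3x and 0x glucose, 0 of 8 were called (0.0118% of all genes; 0 with the block, which called 0.802%), 0 had an unadjusted p under 0.05 and DESeq2 called 0. The widest difference there was that of *Rpe*, at 62.1, 57.1 and 53.5 CPM at 3x and 54.9, 50.5 and 52.7 at 0x (log2 fold change 0.13, SE 0.07), and no member's ranges were free of overlap (9.01% of all genes).

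The comparison of 2-DG with 0x glucose sets the analogue, with glucose present, against the absence of glucose. It shares the 2-DG libraries with the comparison above, so the 2 are not separate evidence. *Rpia* was again the only member called, with a change of −20.8% with 2-DG (95% interval −32.3% to −7.24%; adjusted p = 0.0438, edgeR), where 18.9% of all genes were called, 9.04% as lower. It was also the only member whose ranges did not overlap (37.9% of all genes). This call held without the 0x library of passage 13 and was lost without any other library of the 2 groups, where adjusted p ranged up to 0.149, and without the filter on low counts (0.0683). With passage as a block (43.1% of all genes called, 21.5% in each direction), *Rpia* had an adjusted p of 0.0127, and *Taldo1* (log2 fold change −0.14, adjusted p = 0.00410) and *Tkt* (−0.12, adjusted p = 0.00995) were called as lower too. *Taldo1* was at 115, 98.2 and 100.1 CPM at 0x glucose, so that the 2-DG library of passage 13 lay above the 0x libraries of passages 15 and 16.

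Passage was the other source of difference that the design allows to be tested, since each passage held 1 library of every treatment. *H6pd*, *Tkt* and *Taldo1* differed between passages beside the treatment (edgeR F test, adjusted p = 0.00342, 0.00680 and 0.00133), 3 of 8 members against 46.2% of all genes. *H6pd* was 20.8 to 22.8 CPM at passage 16 and 16.9 to 18.7 CPM at passages 13 and 15, whichever the treatment. *Tkt* was lowest at passage 13, with a mean of 506 CPM against 552 at passage 15 and 538 at passage 16. *Taldo1* was highest there, with 112 CPM against 101 and 102. For *Taldo1*, passages 15 and 16 lay below passage 13 by 0.16 and 0.14 on the log2 scale, as compared with 0.20 for 2-DG.

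The count tables also divide each gene among its RefSeq transcripts. *G6pdx*, *Rpia*, *Tkt* and *Taldo1* have 1 transcript each in the tables. *H6pd* had 98.9% of its counts on 1 of 5 transcripts (NM_173371.4). *Pgls* was split 74.3% to 25.7% between 2 transcripts, with the larger share between 72.8% and 76.9% in every library. *Rpe* was spread over 8, of which NM_025683.3 held 51.0% to 84.0%.

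*Pgd* stood apart, since its gene total was the steadiest of the 8 while its split was not. NM_001081274.2 held 99.9%, 100% and 99.8% of *Pgd* counts in the 2-DG libraries of passages 13, 15 and 16. XM_030253082.1 held 100%, 99.9% and 100% in the 3x libraries. At 1x glucose the leading transcript differed in every library. It was NM_001081274.2 with 100% at passage 13, NM_001356332.1 with 50.9% (and XM_030253082.1 with 46.2%) at passage 15, and XM_006538472.4 with 92.7% at passage 16. At 0x glucose it was XM_006538472.4 with 91.5% at passage 13, XM_030253082.1 with 99.9% at passage 15, and NM_001356332.1 with 50.4% at passage 16. The split thus moved between libraries of 1 treatment as far as between treatments. In an edgeR fit of single transcripts, NM_001356332.1 did not pass the filter on low counts and was not tested. None of the other *Pgd* transcripts was called in any comparison made. The comparisons made did not include 2-DG against 3x glucose, the only treatments that each kept the same leading transcript in all 3 libraries. The difference between these treatments was therefore not tested. NM_001081274.2, for one, had a log2 fold change of 1.47 with an SE of 1.84 for 2-DG against 1x (edgeR, adjusted p = 0.985). In that comparison 0.288% of 46254 transcripts were called. The share was 0.437% for 2-DG against 0x glucose, and 0.013%, 0.00432% and 0.0108% for 0x against 1x, 3x against 1x and 3x against 0x. What sets the split was not tested. Summing the transcripts gives a total between 221 and 249 CPM in all 12 libraries, which is the value used here.

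**Figure D3:**
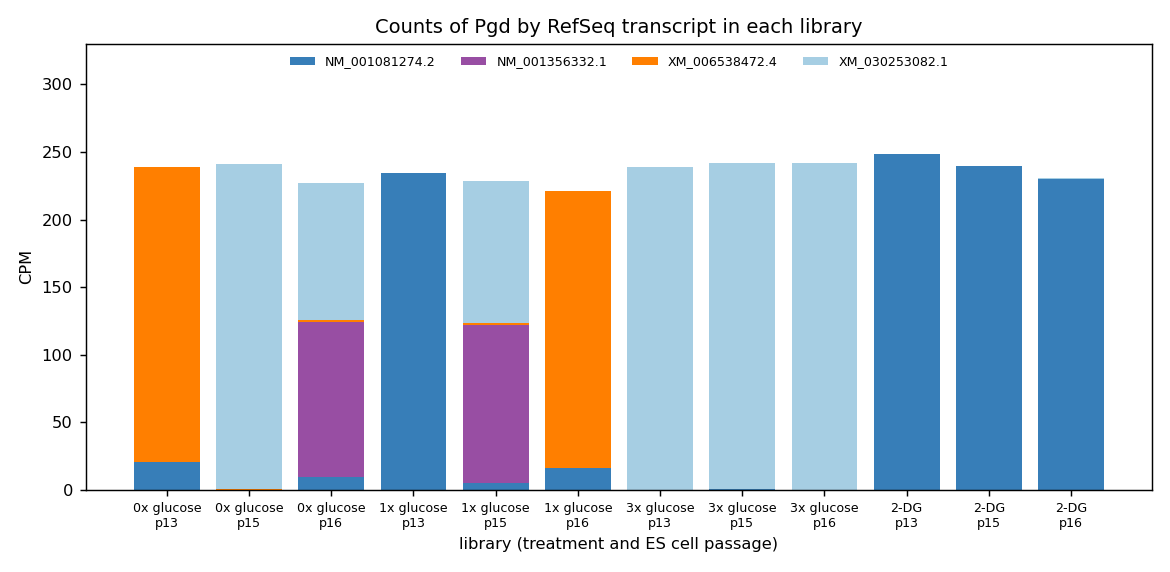
Level of *Pgd* (y axis, CPM) in each of the 12 libraries (x axis: treatment and ES cell passage), divided by colour among 4 RefSeq transcripts. The bar heights lie between 221 and 249 CPM, while the leading transcript is the same in all 3 libraries only at 3x glucose and with 2-DG.

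The genes around the pathway were taken from lists of its neighbours, suppliers and users. Of the 13 genes that handle the same sugar phosphates, 10 were tested. With 2-DG against 1x glucose 2 were lower, where 8.51% of all genes were called as lower, with a median over the list of −0.11. *Hk2*, a hexokinase, which makes the pathway's substrate, fell from 183 to 140.3 CPM (log2 fold change −0.38, SE 0.07, adjusted p = 0.00584). *Pgm2*, which converts ribose-1-phosphate to ribose-5-phosphate, fell from 29.6 to 23.7 CPM (−0.32, SE 0.08, adjusted p = 0.0257). With the passage block 1 gene of the list was higher and 3 were lower, 4 of 10 where 41.3% of all genes were called. *Hk2* was lower with 2-DG than at 0x glucose as well, by 0.79 on the log2 scale (SE 0.07, edgeR adjusted p = 0.000122, 243 against 140.3 CPM). It was the only gene of the list called there without the block, where 18.9% of all genes were called. With the block 4 were lower and 2 higher, where 43.1% of all genes were called.

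In the ER, H6pd depends on glucose-6-phosphate brought in by the transporter that *Slc37a4* encodes. *Slc37a4* fell with 2-DG from 12.9 to 8.76 CPM (log2 fold change −0.55, SE 0.12, adjusted p = 0.0107) and was lower than at 0x glucose too (−0.48, SE 0.12, adjusted p = 0.0187), whereas *G6pc3*, a phosphatase that uses the same substrate, had a change of 0.19 (SE 0.10, adjusted p = 0.244). *Hsd11b1*, the reductase that uses the NADPH made by H6pd, had 0 counts in every library. 

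Ribose-5-phosphate leaves the pathway through phosphoribosyl pyrophosphate (PRPP), the precursor of purine and pyrimidine nucleotides. Of 5 genes for PRPP synthesis, *Prps1* was lower with 2-DG (log2 fold change −0.23, SE 0.06, adjusted p = 0.0277) and 4 were not called, where 8.51% of all genes were called as lower; with the block 3 were lower (20.2% of all genes). Against 0x glucose 0 were called (1 had an unadjusted p under 0.05), where 18.9% of all genes were called. With the block 3 were lower there (21.5% of all genes). The next list held 11 genes that use PRPP or take part in purine and pyrimidine synthesis. Of these, 5 were lower with 2-DG than at 1x glucose (8.51% of all genes), 0 higher and 6 not called. The median log2 fold change over the list was −0.25, against 0.0023 over all genes. The 5 were *Ppat*, which commits PRPP to purines (−0.28, SE 0.05, adjusted p = 0.00309), *Gart* (−0.32, SE 0.09) and *Adsl* (−0.25, SE 0.07), which act later in the purine route, and *Umps* (−0.33, SE 0.07) and *Dhodh* (−0.28, SE 0.07) of the pyrimidine route. Each of them was lower in 3 of 3 passages. With the block 8 of the 11 were lower (20.2% of all genes) and 0 higher. *Hprt*, 1 of the 11, had a low level, between 0.559 and 1.26 CPM over all 12 libraries. Against 0x glucose 7 of the 11 were lower (9.04% of all genes), namely these 5 together with *Pfas* and *Paics*, and 0 were higher. With the block 8 were lower there (21.5% of all genes).

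NADPH is also made outside the pathway. Of 12 genes for other NADPH sources 11 were tested, and 4 were higher with 2-DG than at 1x glucose, where 9.12% of all genes were called as higher, while 0 were lower; with the block the counts were 5 higher (21.1% of all genes) and 2 lower (20.2%). *Aldh1l2*, a formyltetrahydrofolate dehydrogenase, rose from 2.25 to 8.57 CPM (log2 fold change 1.93, SE 0.36, adjusted p = 0.00510). *Nnt*, the proton-driven transhydrogenase, rose by 0.50 (SE 0.10, adjusted p = 0.00642), *Mthfd2* of the folate cycle by 0.31 (SE 0.09, adjusted p = 0.0333) and *Idh2*, an isocitrate dehydrogenase, by 0.21 (SE 0.06, adjusted p = 0.0438). *Aldh1l2* and *Nnt* were called higher against 0x glucose too (9.86% of all genes), and the other 9 were not called; with the block 5 were higher and 3 lower (21.5% of all genes in each direction). Among 9 antioxidant and glutathione genes, 0 were called against 1x glucose, and 2 had an unadjusted p under 0.05. With the block 4 were higher and 2 lower, where 21.1% and 20.2% of all genes were. *Gsr*, glutathione reductase, was called higher against 0x glucose (log2 fold change 0.23, SE 0.06, edgeR adjusted p = 0.0307), where 9.86% of all genes were. With the block 4 were higher and 2 lower there (21.5% of all genes in each direction).

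**Figure D4:**
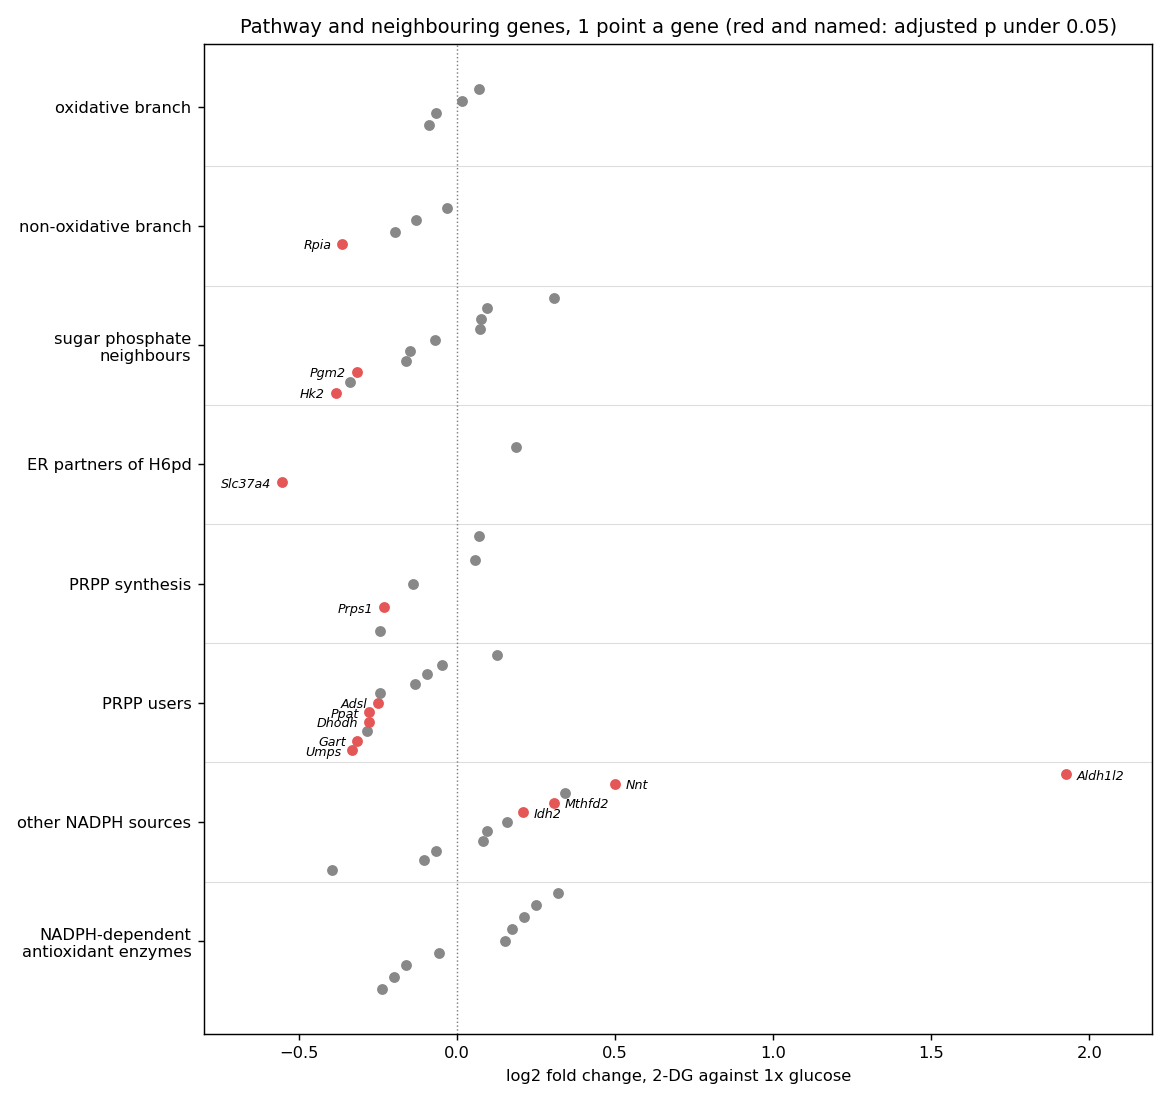
Log2 fold change of 2-DG against 1x glucose (x axis) for the pathway's 2 branches and 6 lists of neighbouring genes (y axis), with 1 point a gene; red, named points had an adjusted p under 0.05. The called genes of the sugar phosphate, PRPP and nucleotide lists lie below 0, between −0.38 and −0.23, and the 4 called NADPH genes lie above 0.

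In the comparisons of 0x, 1x and 3x glucose with each other, 0 genes of these 6 lists were called without the passage term. At an unadjusted p under 0.05 there was 1 for 0x against 1x glucose, in the sugar phosphate list, and 0 for 3x against 1x. For 3x against 0x there were 3, 2 of them in the sugar phosphate list and 1 in the list of PRPP users and nucleotide synthesis. With the block, *Hk2* was called as lower at 3x than at 0x glucose (log2 fold change −0.34, adjusted p = 0.0451; 0.23% of all genes were called as lower).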

How the data were processed

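PolyA RNA of 12 gastruloid libraries (4 treatments, 3 ES cell passages) was prepared with a directional kit. The submitters' processing notes name Trim Galore, HISAT2, SAMtools, Picard, StringTie and DESeq2 and the mm10 build; versions, and whether counting used strand, are not given in the sources used here. The authors deposited estimated counts (whole numbers) per RefSeq transcript for each library, which are the values used here, and 3 tables of their own DESeq2 comparisons (base means, log2 fold changes, p-values and adjusted p-values per transcript), which were not used.

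All 120312 transcripts were matched to gene symbols through RefSeq and summed to 38911 genes, of which 26382 had a count and 16966 passed edgeR's filter (filterByExpr). All 12 libraries were fitted together with edgeR 4.0.16 in R 4.3.3 (TMM, glmQLFit, glmQLFTest, two-sided, Benjamini-Hochberg over all genes tested, threshold 0.05). A call is an adjusted p under 0.05. SE is the log2 fold change over the square root of F, and 95% intervals come from it. Summing keeps a gene's total where the division among transcripts changes. Lengths are those of GENCODE M21 transcripts (GRCm38, as mm10) paired with each gene's leading curated RefSeq transcript. With 31902471 to 45956080 counts a library, the lowest member, *Rpia*, had 507 to 851 counts.

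The labels give the passage that libraries share, which pairs them across treatments. Deviations from the group means correlated by 0.0963 to 0.623 in the 18 pairs of 1 passage. They correlated by −0.44 to 0.191 in the 36 pairs that differed in both passage and treatment, and pairs of 1 treatment were left out. Passage was therefore fitted as a block as the alternative to the unblocked design. Other alternatives were no filter, median-of-ratios factors, DESeq2 1.42.0, only the 2 groups compared, the most abundant transcript alone, each library left out, and a fit per transcript, which was added after seeing the data. Simulated counts with known changes were used to test the scripts. With transcripts of low mean count left out, no 2 libraries shared more than 9.67% of their values.

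The 8 members, the neighbouring gene lists and the markers were chosen with earlier results of these data known. All members are named in every comparison; of the other lists the genes that passed the test without the block are named for 2-DG against 1x glucose, and those of the neighbouring gene lists against 0x glucose as well.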

Additional observations from a re-analysis of the deposited data

How the results depend on the processing

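The count of members called for 2-DG against 1x glucose, 1 (*Rpia*), was 2 with the passage block (*Taldo1* added), 0 with only the 2 groups in the fit, 0 with the most abundant transcript alone and 0 per transcript, and 0 to 1 with a library left out. For 2-DG against 0x glucose it was 1 (*Rpia*), and was 3 with the block (*Taldo1* and *Tkt* added), 0 with no filter, 0 with only the 2 groups, 0 with the most abundant transcript alone and 0 per transcript, and 0 to 1 with a library left out. With the most abundant transcript alone, the counts of *Rpia* are the same but all genes called fell from 2990 to 653 against 1x and from 3207 to 775 against 0x. The comparisons of glucose doses kept 0 members called under every alternative run, and passage kept 3 to 4. The log2 fold change of *Rpia* stayed between −0.41 and −0.31 against 1x glucose (adjusted p from 0.00739 to 0.141 over 12 alternatives fitted per gene, and 0.494 per transcript) and between −0.39 and −0.26 against 0x (0.0127 to 0.163, and 0.513 per transcript). The block changed no other member's call.

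Over all genes, the count called for 2-DG against 1x glucose was 2990, and ran from 131 genes per transcript to 7001 with the block. For 2-DG against 0x it was 3207, with a range of 195 to 7305 under the same settings. For 3x against 0x glucose it was 2, and ran from 0 to 136 with the block. For 0x against 1x it was 2, and ran from 0 to 12 with DESeq2, for 3x against 1x it was 0 and ran to 2, and for passage it was 7840 and ran down to 1879 with the most abundant transcript alone.

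Signs turned among log2 fold changes that were not called. Without the filter, *H6pd* was −0.00091 for 2-DG against 1x and −0.0047 for 3x against 1x, *Rpe* −0.0088 and *Tkt* −0.0068 for 3x against 1x, and *Rpia* 0.00034 for 3x against 0x. With the most abundant transcript alone, *Pgd* was −7.77 for 2-DG against 1x and −9.48 against 0x, and *Rpe* 0.11 and 0.13. The most abundant transcript of *Pgd* holds almost none of its counts in the 2-DG libraries. With a library left out, the sign also turned for these uncalled members. For 0x glucose against 1x glucose it ranged from −0.11 to 0.020 for *Rpia*, −0.055 to 0.022 for *G6pdx*, −0.13 to 0.0020 for *Taldo1*, −0.087 to 0.019 for *Pgls* and −0.024 to 0.19 for *H6pd*. For 2-DG against 0x glucose it ranged from −0.050 to 0.032 for *Rpe*, −0.0035 to 0.057 for *Pgd* and −0.14 to 0.037 for *H6pd*. For 2-DG against 1x glucose it ranged from −0.057 to 0.12 for *H6pd*. For 3x glucose against 1x glucose it ranged from −0.045 to 0.030 for *G6pdx*, −0.073 to 0.11 for *H6pd*, −0.030 to 0.046 for *Tkt*, −0.13 to 0.016 for *Rpia*, −0.054 to 0.055 for *Rpe* and −0.020 to 0.076 for *Pgls*. For 3x glucose against 0x glucose it ranged from −0.092 to 0.073 for *Rpia*, −0.010 to 0.046 for *G6pdx* and −0.16 to 0.033 for *H6pd*.

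The intervals given come from the fit without a passage term, and that fit does not exclude changes that lie within them. With passage as a block the intervals were narrower. For 0x against 1x glucose, the lowest and highest bounds over the members were −15.3% and 17.05% with the block, against −17.3% and 28.6% without it.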

Other observations

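The 5 genes whose level followed that of *G6pdx* most closely over the 12 libraries were *Tcp11x2*, *Nle1*, *Ddn*, *Gm11100* and *Aurkaip1*, with Pearson correlations of log2 CPM of 0.917, 0.906, 0.903, 0.901 and 0.897 (description only, picked as the highest of all tested genes; the libraries share treatments and passages). *Nle1* spanned 42.8 to 51.8 CPM and *Aurkaip1* 56.0 to 70.1 CPM, while *Tcp11x2* (1.09 to 2.39 CPM), *Ddn* and *Gm11100* (both at 0.483 CPM or below) were low. No other member of the pathway was among them.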
